A study of Mus musculus with 24 samples.

Results

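Bst2, Ifi27l2a, Ifi35, Rtp4 and Helz2 are 5 interferon-induced mouse genes that were measured in NIH-3T3 cells, an established line of mouse embryonic fibroblasts. The members were chosen by gene symbol, with their responses to interferon in these arrays already known, and Bst2 and Ifi27l2a also because their signals differ between the mock times. They are 5 of the 18193 genes that the array's annotation names and are represented by 8 of its 45037 probe sets: 3 for Ifi35, 2 for Rtp4 and 1 for each of the others. Total cellular RNA was hybridised to 24 one-colour Affymetrix arrays in 7 groups. Cells of passages 5 to 15 at about 80% density, in DMEM with 5% NCS, were left as mock or given either IFN-alpha or IFN-gamma at 100 U/ml. At 1 h mock, IFN-alpha and IFN-gamma cells had 4 arrays each, all with 200 µM 4-thiouridine (4sU, a uridine analogue that is built into newly made RNA), and 3 arrays of mock without 4sU. At 3 h the mock, IFN-alpha and IFN-gamma cells had 3 arrays each, all with 500 µM 4sU from 150 to 180 min. Time, 4sU dose and labelling window therefore changed together between 1 h and 3 h and cannot be told apart. The sources used here do not say whether the replicates were separate cultures, so the p-values cover only array-to-array spread, part of which may be technical. In RNA from a whole culture, more transcript per cell and more cells with the transcript cannot be told apart.

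IFN-alpha is a type I interferon; its receptor signals through JAK1 and TYK2, and the target genes carry the interferon-stimulated response element (ISRE). IFN-gamma, the type II interferon, signals through JAK1 and JAK2, and its early target genes carry the gamma-activated site; it also induces IRF1, which can bind response elements in turn. Fibroblasts carry both receptors and make antiviral proteins after either interferon, and the members belong to this programme in different roles. Bst2 (tetherin) holds budding enveloped virus particles at the cell surface. Rtp4, a receptor transporter protein, is a chaperone of G protein-coupled receptors and also restricts viruses. Ifi27l2a is a small hydrophobic membrane protein of the interferon-induced ISG12 family. Ifi35 is a leucine zipper protein that binds Nmi, and Helz2 is a zinc finger helicase that acts as a transcriptional coactivator.

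The 300-base windows around the transcription start (250 bases before it and 50 from it on) were searched for both elements, because the members were higher than mock with both interferons at 3 h. RefSeq (GRCm38.p6) gave a window for 3 of the 5 genes: Bst2, Ifi35 and Helz2. The ISRE core was searched as GAAANNGAAA on both strands and the gamma-activated site as TTCNNNGAA, which reads alike on both strands. The Bst2 window held both. Its 2 ISRE cores overlap, at bases -130 to -121 and -124 to -115 from the start, and a gamma-activated site at -136 to -128 overlaps the first of them. The bases before the Bst2 start are printed with these 3 matches in capitals, since this is the member whose window joins both elements (GRCm38.p6, chr8:71537473-71537722, minus strand).
Bst2 promoter: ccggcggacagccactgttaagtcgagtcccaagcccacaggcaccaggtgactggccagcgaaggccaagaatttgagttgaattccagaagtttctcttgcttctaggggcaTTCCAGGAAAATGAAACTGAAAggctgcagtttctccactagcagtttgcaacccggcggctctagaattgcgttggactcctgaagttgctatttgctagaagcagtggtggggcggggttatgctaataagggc
The Ifi35 window held no ISRE core on either strand and 1 gamma-activated site, at bases 8 to 16 after the start, in capitals here with its flanks (GRCm38.p6, chr11:101448409-101448438, plus strand).
Ifi35 site: agaagcagaaTTCACAGAAatgaaagtgga
Neither element was in the Helz2 window. Of 32851 promoters of the same length, 3.44% held an ISRE core and 8.30% a gamma-activated site. These matches are letters in a window and describe no binding.

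Every signal below is a GCRMA value on the log2 scale, so 1 unit is a doubling, and log2 4 was taken as background. Where a gene has several probe sets, the one with the highest average signal gives its value. All 8 probe sets exceeded log2 4 on at least 3 arrays and entered the fit of 19305 probe sets. The fibroblast label was borne out by its markers: 15 of 15 were above background, with Vim at a mean of 13.81. Of 16 markers of leukocytes and plasmacytoid dendritic cells, cells in which Bst2 is also known, 2 were above background (Tcf4, at 9.32, and Cd14), and of 11 epithelial and endothelial markers none was, with the highest, Epcam, at 3.46. Array medians lay between 2.95 and 3.11, and 16933 to 17688 probe sets were above background on each array. Replicates varied more at 1 h (median SD per probe set 0.35 to 0.40) than at 3 h (0.12 to 0.13). On 5 arrays the 5′ actin signal was low against the 3′ one, a sign of shorter RNA or cDNA: the gap was 2.22 to 3.43 on replicate 2 of each 1 h group with 4sU and on replicates 2 and 3 of mock without 4sU, against 0.78 to 1.37 on the others.

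Rtp4 had the widest range of the members' leading probe sets. Its signal in mock cells at 1 h was 4.11, 6.56, 4.25 and 4.75 on replicates 1 to 4. After 1 h of IFN-alpha it was 7.95, 9.01, 7.75 and 8.94. After 1 h of IFN-gamma it was 4.86, 7.88, 4.42 and 5.96. The IFN-alpha arrays all lay above the mock arrays, whereas the IFN-gamma arrays overlapped both, and replicate 2, with the low 5′ actin, was the highest array of all 3 groups. At 3 h the mock arrays read 5.22, 4.78 and 4.74, the IFN-alpha arrays 11.47, 11.33 and 11.36, and the IFN-gamma arrays 10.23, 10.33 and 10.44. The 3 groups did not overlap at 3 h. In mock cells without 4sU Rtp4 read 4.30, 5.99 and 4.62. Ordered by group mean, the mock groups at 3 h (4.91 ± 0.27, SD), at 1 h (4.92 ± 1.13) and without 4sU (4.97 ± 0.90) came first and overlapped each other and IFN-gamma at 1 h (5.78 ± 1.55). IFN-alpha at 1 h (8.41 ± 0.65), IFN-gamma at 3 h (10.33 ± 0.10) and IFN-alpha at 3 h (11.39 ± 0.07) followed, and of these only IFN-alpha at 1 h overlapped a neighbour, by 1 IFN-gamma array.

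The second Rtp4 probe set, 1449143_at, was below background on every array of the mock groups and of IFN-gamma at 1 h. After 1 h of IFN-alpha it read 3.13, 4.39, 3.25 and 4.11, so 2 of the 4 arrays were above background. At 3 h it read 6.68, 6.76 and 6.50 with IFN-alpha and 5.63, 5.71 and 5.69 with IFN-gamma. With mock arrays set to background, these are at least 6.28-fold and at least 3.20-fold higher than mock.

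Bst2 was near background at 1 h and well above it at 3 h in every group. In mock cells at 1 h it read 4.44, 3.53, 3.96 and 5.09, and 2 of these 4 arrays were below log2 4. IFN-alpha for 1 h gave 4.67, 4.17, 5.18 and 5.56, and IFN-gamma gave 4.71, 3.18, 4.37 and 4.77. All 3 groups overlapped at 1 h, as did mock without 4sU (4.52, 3.73 and 2.87). At 3 h mock cells read 6.22, 6.04 and 6.10, IFN-gamma 7.78, 7.89 and 7.97, and IFN-alpha 9.12, 8.88 and 9.05. These 3 groups were apart from each other and from every 1 h array, since the lowest mock array at 3 h was above the highest of all arrays at 1 h, an IFN-alpha array at 5.56. The order of the means was mock without 4sU (3.70 ± 0.83, SD), mock and IFN-gamma at 1 h (4.26 ± 0.67 and 4.26 ± 0.74), IFN-alpha at 1 h (4.90 ± 0.61), mock at 3 h (6.12 ± 0.09), IFN-gamma at 3 h (7.88 ± 0.09) and IFN-alpha at 3 h (9.02 ± 0.12).

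For Ifi27l2a, too, every array at 3 h was above every array at 1 h. Mock cells at 1 h read 6.25, 6.76, 6.31 and 7.29, IFN-alpha cells 6.85, 7.32, 6.00 and 7.73, and IFN-gamma cells 6.26, 6.77, 6.19 and 7.66. Replicate 4 was the highest array in each of these groups, and the groups overlapped throughout, together with mock without 4sU (6.55, 6.41 and 6.07). At 3 h mock cells read 9.74, 9.68 and 9.77, IFN-gamma cells 10.01, 10.02 and 10.36, and IFN-alpha cells 10.79, 10.65 and 10.91. The 3 h groups followed each other without overlap, at means of 9.73 ± 0.05, 10.13 ± 0.20 and 10.79 ± 0.13 (SD, n = 3 each), all above the 1 h means of 6.34 ± 0.25 (no 4sU, n = 3), 6.65 ± 0.48 (mock), 6.72 ± 0.68 (IFN-gamma) and 6.98 ± 0.74 (IFN-alpha, n = 4 each).

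Ifi35 was measured by 3 probe sets. On 1445897_s_at mock cells at 1 h read 8.43, 9.62, 8.94 and 8.48, IFN-alpha cells 9.63, 10.69, 9.08 and 9.83, and IFN-gamma cells 8.70, 9.94, 8.98 and 8.82. Replicate 2 was the highest array of each group, and the groups overlapped. At 3 h this probe set read 8.64, 8.55 and 8.50 in mock cells, 12.13, 12.11 and 11.95 with IFN-alpha, and 10.66, 10.68 and 10.68 with IFN-gamma, without overlap. The order of the means was mock at 3 h (8.57 ± 0.07, SD), mock at 1 h (8.87 ± 0.55), mock without 4sU (8.99 ± 0.49; 8.46, 9.44 and 9.08), IFN-gamma at 1 h (9.11 ± 0.56), IFN-alpha at 1 h (9.81 ± 0.67), IFN-gamma at 3 h (10.67 ± 0.01) and IFN-alpha at 3 h (12.06 ± 0.10). Up to IFN-gamma at 3 h every neighbouring pair overlapped, and IFN-alpha at 3 h stood above all other arrays.

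The other Ifi35 probe sets differed in how the 1 h groups separated. On 1459151_x_at mock cells at 1 h read 5.83, 6.04, 5.82 and 6.13 and IFN-alpha cells 6.74, 7.33, 6.35 and 7.35, so IFN-alpha lay above mock on every array. IFN-gamma gave 5.98, 5.76, 6.32 and 6.36, which overlapped mock. On 1424617_at mock cells read 5.60, 3.58, 5.64 and 5.33 and IFN-alpha cells 6.40, 5.83, 6.52 and 6.48, again apart, while IFN-gamma gave 5.81, 4.60, 5.96 and 5.79. Here replicate 2 was the lowest array of each group, where on 1445897_s_at it was the highest. At 3 h both probe sets were apart in all 3 groups, with means of 5.90, 9.44 and 7.98 (1459151_x_at) and of 5.98, 9.65 and 8.19 (1424617_at) in mock, IFN-alpha and IFN-gamma cells.

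Helz2 was the member with 3 of its 4 IFN-alpha arrays at 1 h above every IFN-gamma array at 3 h. Mock cells at 1 h read 6.11, 6.90, 6.45 and 6.34, IFN-gamma cells 6.21, 7.52, 6.75 and 6.63, and IFN-alpha cells 8.65, 9.07, 8.09 and 9.04. IFN-alpha was apart from both other groups, which overlapped each other and mock without 4sU (5.91, 6.64 and 6.90). At 3 h mock cells read 6.07, 6.08 and 5.75, IFN-gamma cells 8.19, 7.89 and 7.62, and IFN-alpha cells 10.75, 10.86 and 10.51. The order of the means was mock at 3 h (5.97 ± 0.19, SD), mock at 1 h (6.45 ± 0.33), mock without 4sU (6.48 ± 0.51), IFN-gamma at 1 h (6.78 ± 0.55), IFN-gamma at 3 h (7.90 ± 0.29), IFN-alpha at 1 h (8.71 ± 0.46) and IFN-alpha at 3 h (10.71 ± 0.18). IFN-gamma at 3 h and IFN-alpha at 1 h overlapped by 1 array, and IFN-alpha at 3 h overlapped no group.

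**Figure D1:**
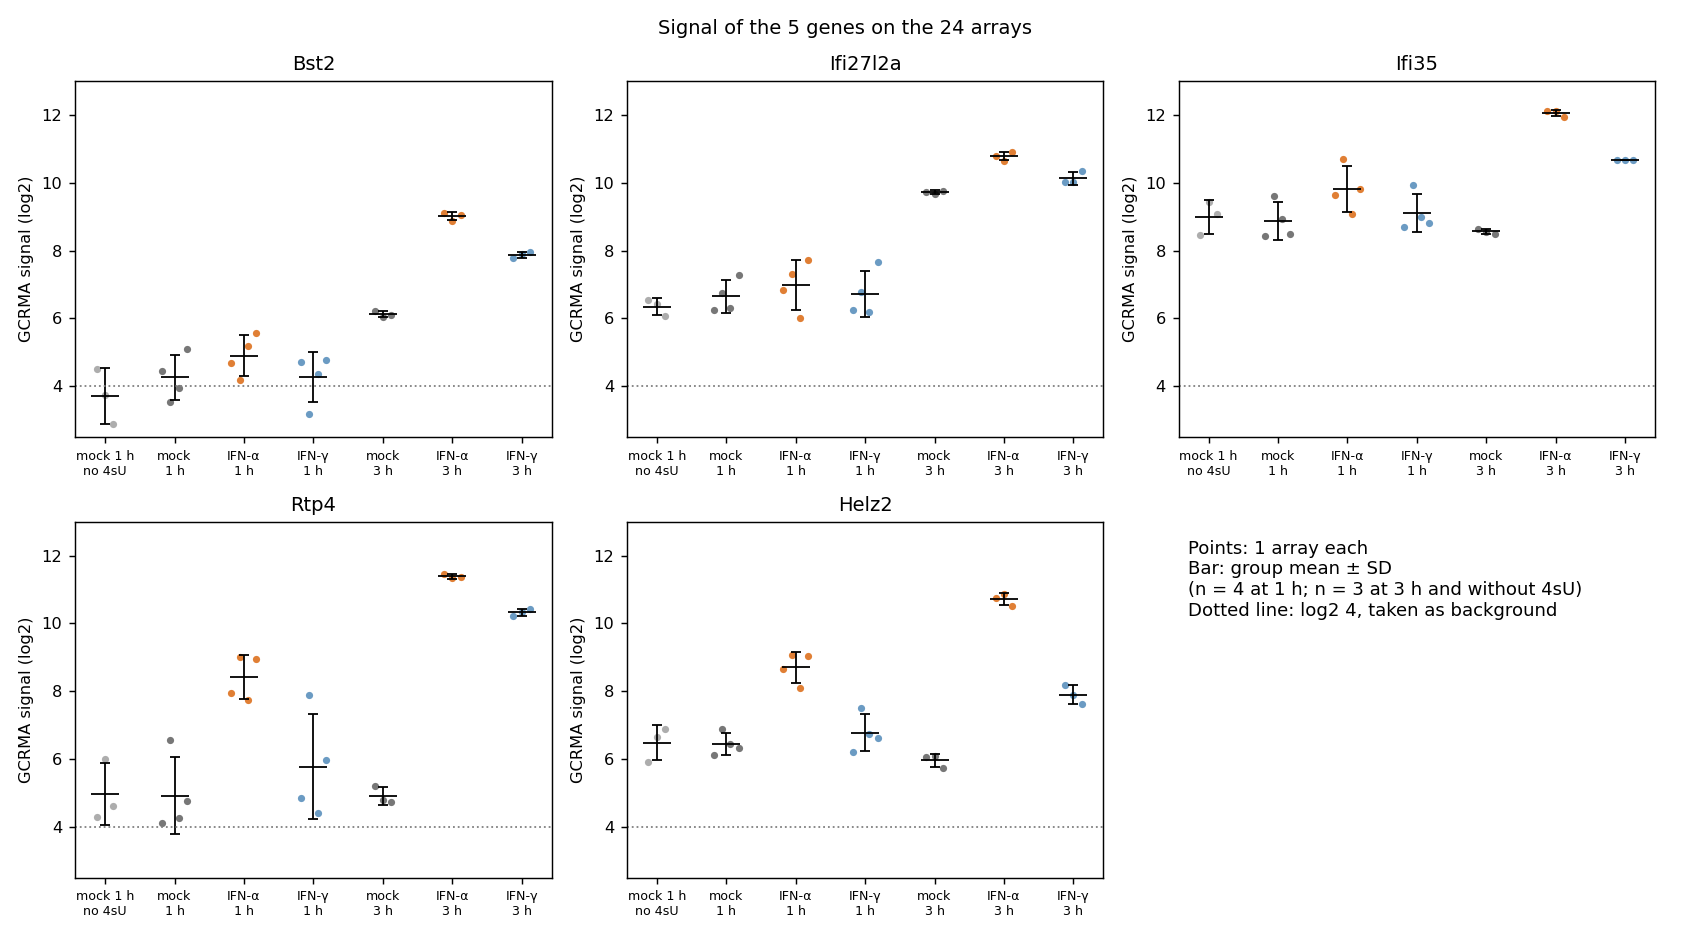
GCRMA signal (log2, y axis) of the leading probe set of each gene on the 24 arrays, by group (x axis); points are arrays, bars are group means ± SD and the dotted line is background at log2 4. At 3 h the IFN-alpha arrays lie above the IFN-gamma arrays and these above the mock arrays for each gene, and the mock arrays of Bst2 and Ifi27l2a are higher at 3 h (means 6.12 and 9.73) than at 1 h (4.26 and 6.65).

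**Figure D2:**
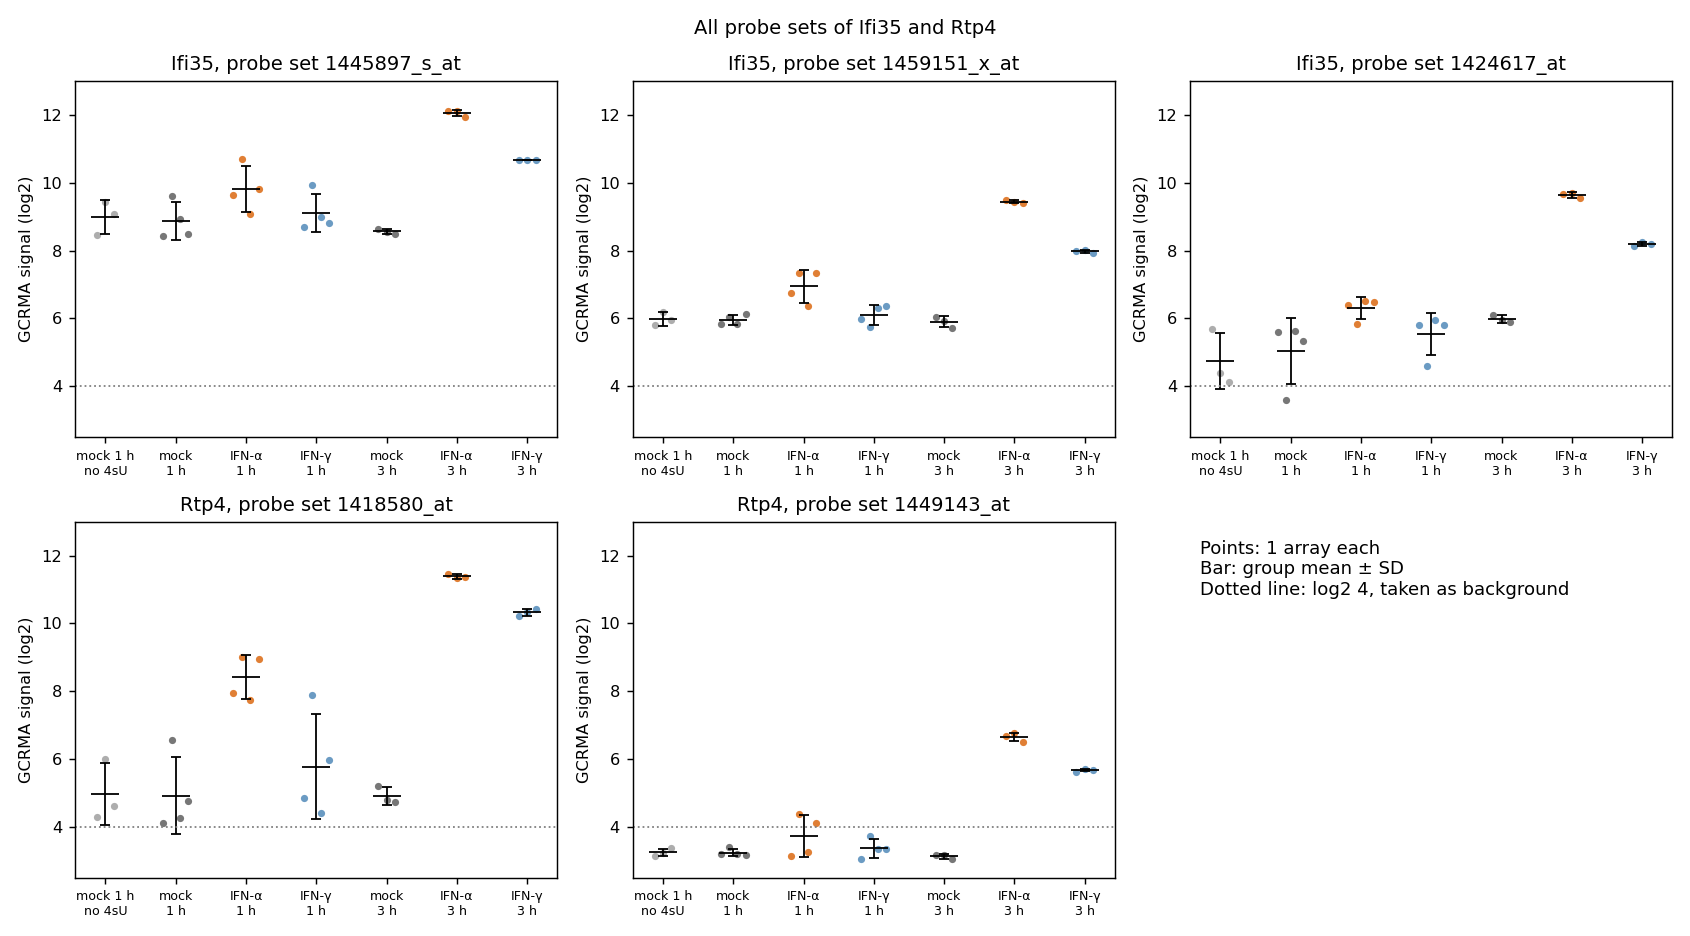
GCRMA signal (log2, y axis) of the 3 Ifi35 and 2 Rtp4 probe sets by group (x axis); points are arrays, bars are group means ± SD and the dotted line is background at log2 4. The groups keep the same order at 3 h on every probe set, whereas the outlying low 1424617_at arrays at 1 h (3.58 in mock, 4.60 with IFN-gamma) are replicate 2, the replicate that is highest on 1445897_s_at.

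The differences from mock were among the values the members were selected on, so they are given as a description with no p, and nothing is read from their counts. The IFN-alpha and IFN-gamma differences at one time share the same mock arrays. After 1 h of IFN-alpha Rtp4 was higher than mock by 3.49 ± 0.60 (SE), which is 11.3-fold, and Helz2 by 2.26 ± 0.27, or 4.80-fold. Ifi35 was higher by 0.94 ± 0.32 on 1445897_s_at, by 0.99 ± 0.19 on 1459151_x_at and by 1.27 ± 0.39 on 1424617_at. For Bst2 the difference was 0.64 ± 0.38 and for Ifi27l2a 0.33 ± 0.32, within the overlap of their arrays. Between arrays of the same replicate number the Rtp4 difference was 3.84, 2.45, 3.50 and 4.18 and the Helz2 difference 2.54, 2.17, 1.64 and 2.70, whereas that of Ifi27l2a was 0.60, 0.56, -0.30 and 0.45. In the fit, 2 of the 5 genes, Rtp4 and Helz2, and 3 of the 8 probe sets passed at an adjusted p under 0.05, where 0.259% of all probe sets did. These 2 genes, and 4 probe sets, were also above mock on every array, as were 0.508% of all. With only the mock and IFN-alpha arrays at 1 h in the fit, 1 gene passed, since Rtp4 did not. With the replicate number as a block, with the mean of a gene's probe sets or without the low 5′ actin arrays, 3 genes passed, Ifi35 being the added one. The shares of all probe sets that passed in these alternative fits were not counted. The call of Ifi35 on 1459151_x_at ended without those arrays, without IFN-alpha replicate 2 or 4, or without mock replicate 1 or 3, and with only the groups compared. Without the low 5′ actin arrays the differences were 3.84 for Rtp4, 2.30 for Helz2, 0.90, 0.89 and 0.94 for the 3 Ifi35 probe sets, 0.64 for Bst2 and 0.25 for Ifi27l2a.

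After 1 h of IFN-gamma the same differences were 0.86 ± 0.60 for Rtp4, 0.33 ± 0.27 for Helz2, 0.24 ± 0.32 for Ifi35, 0.07 ± 0.32 for Ifi27l2a and 0.00 ± 0.38 for Bst2. Without the low 5′ actin arrays the largest, that of Rtp4, was 0.71. By replicate number Rtp4 differed by 0.75, 1.33, 0.17 and 1.21 and Bst2 by 0.27, -0.36, 0.41 and -0.32. No member passed in limma (0 of 8 probe sets), where 0.492% of all probe sets did. Under an unadjusted p of 0.05 were 0 of the 8, as were 580 of all 19305. None was above mock on every array either, as 0.746% of all were.

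After 3 h of IFN-alpha the difference from mock was 6.47 ± 0.69 for Rtp4 (88.8-fold), 4.74 ± 0.31 for Helz2 (26.7-fold), 3.50 ± 0.37 for Ifi35 (11.3-fold), 2.90 ± 0.44 for Bst2 (7.45-fold) and 1.05 ± 0.37 for Ifi27l2a (2.08-fold). The other Ifi35 probe sets gave 11.6-fold and 12.7-fold. With IFN-gamma the differences were smaller for each gene, at 5.42 ± 0.69 for Rtp4 (42.8-fold), 2.11 ± 0.37 for Ifi35 (4.31-fold), 1.94 ± 0.31 for Helz2 (3.83-fold), 1.76 ± 0.44 for Bst2 (3.40-fold) and 0.40 ± 0.37 for Ifi27l2a (1.32-fold). The replicate numbers gave closely spaced values, for instance 2.90, 2.84 and 2.95 for Bst2 with IFN-alpha and 1.57, 1.86 and 1.87 with IFN-gamma. Ifi27l2a had the smallest differences in both series, 1.05, 0.97 and 1.14 with IFN-alpha and 0.27, 0.34 and 0.59 with IFN-gamma. All 5 genes, and all 8 probe sets, were above mock on every array under both interferons, as were 6.21% of all probe sets with IFN-alpha and 8.31% with IFN-gamma. The fit called 4 genes and 7 probe sets, all but Ifi27l2a, with each interferon, where 1.55% and 1.99% of all probe sets passed. Ifi27l2a passed with IFN-alpha when the replicate number was a block or when only the 2 groups compared were fitted. The IFN-gamma call of Bst2 ended, leaving 3 genes, without any 1 of the 6 mock and IFN-gamma arrays at 3 h. It also ended, leaving 3 genes, with all arrays kept and no filter on the probe sets.

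**Figure D3:**
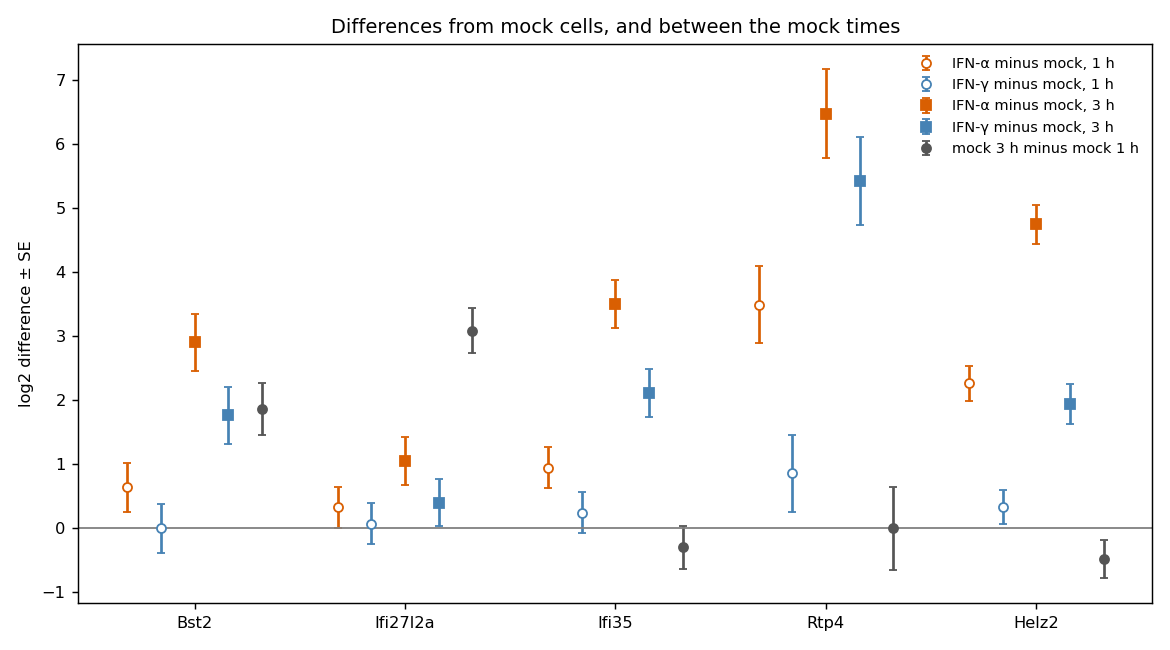
Difference from mock (log2, ± SE, y axis) for each gene (x axis) with IFN-alpha and IFN-gamma at 1 h and 3 h, and mock at 3 h minus mock at 1 h, from the leading probe sets. Rtp4 reaches 6.47 with IFN-alpha and 5.42 with IFN-gamma at 3 h, and Ifi27l2a stays lowest under the interferons at 3 h, at 1.05 and 0.40. Between the mock times Ifi27l2a has the largest difference, 3.08.

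The mock groups themselves separated the members. Bst2 was higher in mock cells at 3 h than at 1 h by 1.86 ± 0.41 (SE; 3.33-fold with arrays below background set to it) and Ifi27l2a by 3.08 ± 0.35 (8.46-fold), and for both every 3 h array was above every 1 h array. These 2 genes were selected on this difference. Ifi35 differed by -0.30 ± 0.34, by -0.05 ± 0.20 and by 0.94 ± 0.42 on its 3 probe sets, Rtp4 by 0.00 ± 0.65 and Helz2 by -0.48 ± 0.29. Without the low 5′ actin arrays the third Ifi35 probe set, 1424617_at, differed by 0.45 ± 0.11 and was called, Rtp4 by 0.54 ± 0.34, Helz2 by -0.33 ± 0.22, Bst2 by 1.62 ± 0.24 and Ifi27l2a by 3.12 ± 0.41. The Helz2 arrays did not overlap, since the highest mock array at 3 h (6.08) was just under the lowest at 1 h (6.11). Of the members, 2 genes passed the test between the mock times, where 11.3% of all probe sets did, and 2 genes and 3 probe sets were above on every array, as 18.9% of all were. The log2 of the summed signal of the 16 leukocyte and plasmacytoid dendritic cell markers was 9.75 to 9.96 in mock cells at 1 h and 9.08 to 9.20 at 3 h, lower where Bst2 was higher. This sum is mostly Tcf4, since 14 of the markers were below background, and its part in the result was not tested.

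The 2 interferons were set against each other directly with limma, a comparison that contains no mock array. It uses the interferon arrays whose differences from mock were known when the members were chosen. Its p-values for the members, at 1 h and at 3 h, are therefore not independent of that choice. At 1 h Helz2 was higher with IFN-alpha than with IFN-gamma by 1.94 ± 0.27 (SE; 3.83-fold, adjusted p = 0.000584), with every IFN-alpha array above every IFN-gamma array. Between the replicate numbers the Helz2 difference was 2.44, 1.55, 1.35 and 2.41. The call held with any single array left out and ended, at an adjusted p of 0.224, with only these 2 groups in the fit (8.2e-06 to 0.224 over the alternatives). The SE of the main fit is shared with the less variable 3 h arrays. With only these 2 groups in the fit the Helz2 SE was 0.33, against 0.27. Rtp4 was higher by 2.63 ± 0.60 (6.19-fold, 95% interval 1.38 to 3.88) and did not pass, at an adjusted p of 0.0696. Its difference was 3.09, 1.12, 3.33 and 2.97 by replicate number, lowest for replicate 2. Without IFN-gamma replicate 2 it was 3.33 (adjusted p = 0.00183), and without the 5 low 5′ actin arrays it was 3.13 (adjusted p = 0.000131), both past the threshold, and over all alternatives the adjusted p ran from 5.83e-05 to 1. On the second Rtp4 probe set, 1449143_at, the difference was 0.35 ± 0.21 (95% interval -0.09 to 0.79), or 1.09-fold with background set. It passed neither in the main fit nor in any alternative (lowest adjusted p = 0.305, with the replicate number as a block). Every IFN-gamma array at 1 h was below background on this probe set.

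The other members did not pass at 1 h. Ifi35 was higher with IFN-alpha by 0.70 ± 0.32 (95% interval 0.04 to 1.36, adjusted p = 1), and by 0.84 ± 0.19 on 1459151_x_at (adjusted p = 0.0657, and 0.00431 without IFN-alpha replicate 3). On 1424617_at it was higher by 0.77 ± 0.39 (interval -0.05 to 1.58) and did not pass. Bst2 differed by 0.64 ± 0.38 (interval -0.15 to 1.43) and Ifi27l2a by 0.26 ± 0.32 (interval -0.42 to 0.93), both at an adjusted p of 1. Leaving out the low 5′ actin arrays gave 0.68, 0.60 and 0.61 on the 3 Ifi35 probe sets, 0.52 for Bst2 and 0.16 for Ifi27l2a, and 2.07 for Helz2. On 1424617_at the SE was 0.11 in that fit, against 0.39 with all arrays. In all, 1 gene and 1 probe set of the members passed, where 0.363% of all probe sets did, and 1 was above on every array, as were 0.570% of all. Same-numbered arrays at 1 h deviated together, so the replicate number was also fitted as a block. With the block 3 genes passed, where 2.08% of all probe sets did: Helz2, Rtp4 (adjusted p = 5.83e-05) and Ifi35 (adjusted p = 0.0228, with 0.00348 to 1 over its alternatives). Ifi35 also passed with the block on 1459151_x_at (adjusted p = 0.0134) and on 1424617_at (adjusted p = 0.0308).

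At 3 h all 5 genes, on all 8 probe sets, were higher with IFN-alpha than with IFN-gamma on every array, as were 8.82% of all probe sets. Helz2 differed most, by 2.80 ± 0.31 (SE; 6.98-fold, adjusted p = 5.37e-06), and by 2.56, 2.97 and 2.89 between the replicate numbers. Ifi35 was higher by 1.39 ± 0.37 (2.62-fold, adjusted p = 0.0635) on 1445897_s_at, by 1.46 ± 0.22 on 1459151_x_at, which passed (adjusted p = 0.00024), and by 1.45 ± 0.45 on 1424617_at (adjusted p = 0.191). The 3 probe sets thus gave nearly the same difference and fell on either side of the threshold through their spread. Bst2 was higher by 1.13 ± 0.44 (2.19-fold, interval 0.22 to 2.05, adjusted p = 0.581), Ifi27l2a by 0.66 ± 0.37 (1.57-fold, interval -0.13 to 1.44, adjusted p = 1) and Rtp4 by 1.05 ± 0.69 (2.08-fold, interval -0.39 to 2.50, adjusted p = 1). On its second probe set Rtp4 differed by 0.97 ± 0.24 and passed (adjusted p = 0.0442), a call that ended without any 1 of the 6 arrays (adjusted p 0.0916 to 0.217).

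Of the members 1 gene and 3 probe sets passed at 3 h, where 1.68% of all probe sets did. The SE of this fit is shared with the more variable 1 h arrays, and the differences by replicate number were close to each other: 1.33, 0.98 and 1.08 for Bst2, 0.78, 0.63 and 0.55 for Ifi27l2a and 1.24, 1.00 and 0.92 for Rtp4. With the replicate number as a block 4 genes passed, where 4.69% of all probe sets did: Helz2, Ifi35 (adjusted p = 7.96e-05, with 1.69e-06 to 0.234 over its alternatives), Bst2 (0.000992, with 0.000772 to 1) and Ifi27l2a (0.0204, with 0.0204 to 1). Rtp4 did not (0.0898, with 0.000669 to 1). With only the 6 arrays compared, all 5 genes passed. The share of all probe sets that passed in that fit was not counted, so nothing is read from this count. For Rtp4 the step between the interferons was 2.63 at 1 h and 1.05 at 3 h, and for Helz2 1.94 and 2.80; whether these steps differ between the times was not tested.

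The change of each interferon response, its difference from the mock of the same time, between 1 h and 3 h is made of the differences the members were selected on. It is therefore also described with no p, and nothing is read from its counts. The IFN-alpha difference at 3 h exceeded that at 1 h by 2.98 ± 0.91 (SE) for Rtp4, 2.56 ± 0.48 for Ifi35, 2.48 ± 0.41 for Helz2, 2.26 ± 0.58 for Bst2 and 0.73 ± 0.50 for Ifi27l2a. On the other Ifi35 probe sets the excess was 2.54 ± 0.29 and 2.40 ± 0.60, and without mock replicate 2 at 1 h, the 1424617_at array at 3.58, the latter was 2.88. Bst2 and the second Rtp4 probe set lay near or below background at 1 h; with every array below background set to it, their values were 2.38 ± 0.40 and 2.53 ± 0.13. Without the low 5′ actin arrays the excess was 2.63 for Rtp4, 2.60 for Ifi35, 2.44 for Helz2, 2.25 for Bst2 and 0.81 for Ifi27l2a. In all 2 genes, Ifi35 and Helz2, and 4 probe sets were called, where 0.953% of all probe sets were, and 4 genes with the replicate block, where 2.02% were, Bst2 and Rtp4 being added.

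The IFN-gamma difference at 3 h exceeded that at 1 h by 4.56 ± 0.91 (SE) for Rtp4, which went from 0.86 to 5.42, by 1.87 ± 0.48 for Ifi35, 1.76 ± 0.58 for Bst2, 1.61 ± 0.41 for Helz2 and 0.33 ± 0.50 for Ifi27l2a. On the other Ifi35 probe sets the excess was 1.93 ± 0.29 and 1.71 ± 0.60, the latter 2.20 without mock replicate 2 at 1 h. With arrays below background set to it, the excess was 1.68 ± 0.40 for Bst2 and 1.68 ± 0.13 for the second Rtp4 probe set. For the latter every mock and IFN-gamma array at 1 h was below background, so its response at 1 h is not known. It was, without the low 5′ actin arrays, 4.71 for Rtp4, 1.89 for Ifi35, 1.64 for Bst2, 1.71 for Helz2 and 0.31 for Ifi27l2a. In all 1 gene, Rtp4, and 3 probe sets were called, where 0.829% of all probe sets were, and 4 genes with the replicate block, where 2.73% were, Ifi35, Bst2 and Helz2 being added. Without IFN-gamma replicate 2 at 1 h, a low 5′ actin array, 3 genes were called, with 2.14 for Ifi35 and 1.86 for Helz2. Both changes carry the 4sU dose and window along with the time.

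**Figure D4:**
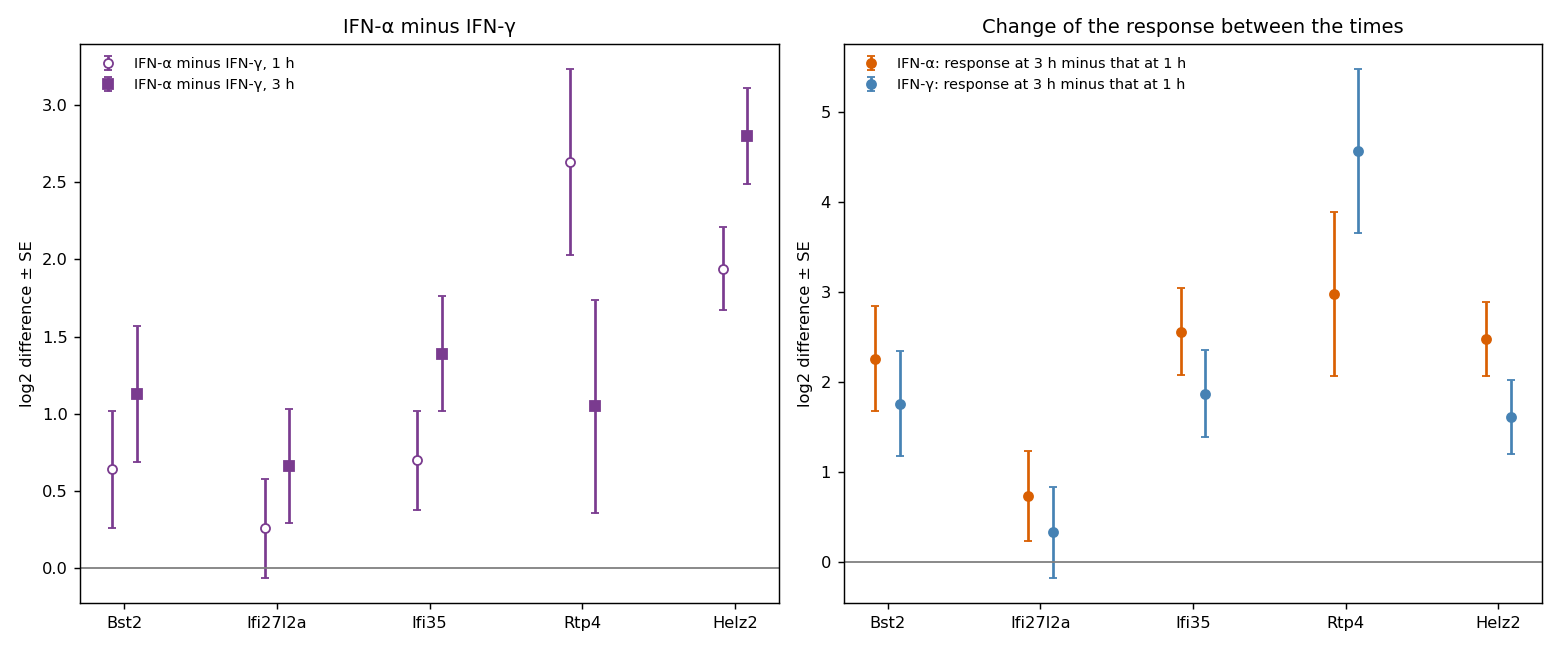
Differences (log2, ± SE, y axis) for each gene (x axis), from the leading probe sets: IFN-alpha minus IFN-gamma at each time, which was tested (left), and each difference from mock at 3 h minus that at 1 h, which is a description (right). Helz2 has the largest IFN-alpha excess at 3 h (2.80) and Rtp4 the largest change of the IFN-gamma response (4.56).

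4sU itself was compared in mock cells at 1 h, where it was the only labelled difference. Bst2 differed by 0.55 ± 0.41 (SE, 4sU minus none, interval -0.31 to 1.41, adjusted p = 0.84), Ifi27l2a by 0.31 ± 0.35 (interval -0.42 to 1.04, adjusted p = 0.887), Ifi35 by -0.13 ± 0.34 (interval -0.84 to 0.58, adjusted p = 0.952), Rtp4 by -0.05 ± 0.65 (interval -1.40 to 1.30, adjusted p = 0.988) and Helz2 by -0.03 ± 0.29 (interval -0.64 to 0.58, adjusted p = 0.984). No member passed in limma (0 of 8 probe sets), where 0.0311% of all probe sets did. Under an unadjusted p of 0.05 were 0 of the 8, as were 1352 of all 19305, so nothing is read from this count. None passed in any alternative fit that kept more than 1 array without 4sU. Without the low 5′ actin arrays, which leaves 1 array without 4sU, the difference was -0.03 for Bst2, 0.06 for Ifi27l2a, 0.15 for Ifi35, 0.07 for Rtp4 and 0.39 for Helz2. The 500 µM dose of the 3 h arrays has no counterpart without 4sU.

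Correlations across the 24 arrays are given as a description, since the arrays share groups, controls and labelling. On the leading probe sets Ifi35, Rtp4 and Helz2 followed each other with Pearson r of 0.94 (Ifi35 and Rtp4), 0.92 (Ifi35 and Helz2) and 0.89 (Rtp4 and Helz2). Bst2 and Ifi27l2a, which share the mock time difference, had r = 0.92, and the other pairs of leading probe sets ran from 0.48 (Ifi27l2a and Helz2) to 0.73 (Bst2 and Rtp4). The other probe sets did not keep this division: Bst2 had r = 0.95 with Ifi35 on 1424617_at, 0.85 with Ifi35 on 1459151_x_at and 0.85 with the second Rtp4 probe set. Among probe sets of the same gene r was 0.91 for Rtp4 and 0.77 to 0.94 for Ifi35.

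The genes whose signal was most like each member over the 24 arrays were named by the 3 highest r. For Bst2 these were Lgals3bp (0.975), Il15 (0.958) and Tcirg1 (0.956). Lgals3bp, a secreted galectin-binding glycoprotein, had group means of 4.92 in mock cells at 1 h, 6.65 in mock cells at 3 h, 7.83 with IFN-gamma and 9.08 with IFN-alpha at 3 h, a step in mock cells followed by steps under interferon as for Bst2. For Ifi27l2a they were Sod3 (0.969), Lpar4 (0.950) and Scg2 (0.946). Sod3, the extracellular superoxide dismutase, was at 2.97 in mock cells at 1 h and at 7.30, 7.43 and 7.41 in mock, IFN-alpha and IFN-gamma cells at 3 h, so it shared the time step of Ifi27l2a and had almost no step between the treatments. For Rtp4 they were Dtx3l (0.981), Samd9l (0.969) and Trim21 (0.961), for Ifi35 Samd9l (0.974), Phf11d (0.970) and Gm20559 (0.966), and for Helz2 Ifit3 (0.966), Pnp (0.957) and Samd9l (0.956). Samd9l, a large interferon-induced protein that restricts poxviruses, was thus among the 3 for each of Ifi35, Rtp4 and Helz2 and for neither Bst2 nor Ifi27l2a. Over the 7 group means in place of the arrays, Lgals3bp (0.996), Gm20559 (0.993), Ifit3 (0.983) and Pnp (0.983) stayed among the 3 of their member. Dtx3l (0.998) and Trim21 (0.981) stayed too, each on another of its probe sets. None of the 3 for Ifi27l2a stayed, and Samd9l was no longer among the 3 for Ifi35, Rtp4 or Helz2.

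The wider pathway gives the scale for these values. The gene lists here and in the next paragraph were chosen with earlier results of these data known. Their counts, medians and p-values are descriptions and are not independent of that choice. Where a named gene's dimmer group was below background on every array, the difference is given as at least the value with that group set to log2 4, and each median is also given with all arrays below background set to it. The counts were made without setting background, so they can include genes whose signals are near or below it. Of 48 tested antiviral effector genes other than the members, 17 rose and 0 fell after 1 h of IFN-alpha (median difference 1.05, or 0.83 with background set, against -0.01 over all probe sets), among them Ifit1 (5.56), Irgm2 (at least 3.30) and Igtp (at least 2.76). After 1 h of IFN-gamma 5 rose and 0 fell (median 0.09, or 0.05, against -0.04), among them Irgm1 (4.16), Irgm2 (at least 3.96) and Igtp (at least 3.55), GTPases that act on pathogen vacuoles. After 3 h of IFN-alpha 46 rose and 0 fell (median 4.73, or 4.51, against -0.06), among them Ifit3 (7.83), Iigp1 (at least 6.96) and Oasl2 (at least 6.89). After 3 h of IFN-gamma 33 rose and 0 fell (median 1.79, or 1.72, against -0.05), among them Iigp1 (at least 8.32), Igtp (at least 7.97) and Irgm2 (at least 7.70). The 33 also hold Ifih1, Dhx58 and Oas2, which differed by only 0.06, 0.13 and 0.17 with background set. On the leading probe sets Rtp4 lay above both medians at 3 h with either interferon, Helz2 close to them, and Ifi27l2a below them. Ifi35 (3.50) and Bst2 (2.90) lay below them with IFN-alpha. With IFN-gamma Ifi35 (2.11) lay above them and Bst2 (1.76) close to them. The second Rtp4 probe set gave 3.52, or 2.65 with background set, with IFN-alpha, below both medians. With IFN-gamma it gave 2.55, or 1.68 with background set, on either side of them. In the direct comparison at 3 h, 30 of the 48 were higher with IFN-alpha and 0 lower (median 1.79, or 1.73, against -0.01), among them Rsad2 (at least 6.04), Mx1 (at least 5.31) and Cmpk2 (at least 4.95), each a wider step than that of any member. At 1 h 9 were higher and 0 lower (median 0.46, or 0.42, against 0.03), among them Ifit1 (5.70), Ifit3 (3.74) and Mx2 (at least 0.85), where Ifit1 and Ifit3 were below background on 2 of the 4 IFN-gamma arrays and gave 5.45 and 3.51 with these set to it. Between the mock times 3 rose, Lgals3bp (1.73), Tor3a (0.78) and Oas1a (at least 0.50), and 1 fell, Ifit2 (-0.81), with a median of 0.02, or 0.00, against 0.06 over all probe sets.

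Of 20 tested genes of interferon signalling, 4 rose and 0 fell after 1 h of either interferon. Irf1 was higher by 3.35 with IFN-alpha and by 5.28 with IFN-gamma, and Usp18, the protease that removes ISG15 and dampens the type I receptor, was higher by at least 1.97 with IFN-alpha. After 3 h of IFN-alpha 6 rose and 0 fell, among them Usp18 (at least 7.60), Stat2 (4.40) and Irf7 (at least 2.73). After 3 h of IFN-gamma 7 rose and 0 fell, among them Irf1 (4.54), Stat2 (3.88) and Usp18 (at least 2.96). The 7 also hold Cish, which differed by 0.01 with background set. Set against each other at 3 h, 2 were higher with IFN-alpha, Usp18 (4.64) and Irf7 (at least 2.73), and 4 lower, with Irf1 at -3.56, opposite in sign to every member. Cish, also among the 4, differed by -0.01 with background set. Of 12 tested paralogs and partners of the members 2 rose after 3 h of IFN-alpha, Nmi and Zc3hav1, and 1, Nmi, after 3 h of IFN-gamma. Nmi, the partner of Ifi35, rose after 3 h of IFN-alpha by 1.74 ± 0.17 (SE, adjusted p = 2.12e-07) and of IFN-gamma by 1.47 ± 0.17 (adjusted p = 4.4e-06), beside 3.50 and 2.11 for Ifi35. A probe set annotated to Ifi27 differed from mock by 0.20 with IFN-alpha and by 0.49 with IFN-gamma at 3 h and by 0.01 between the mock times, with no call. RefSeq lists Ifi27 as a gene of its own, with the gene ID that the platform gives this probe set, and also as an older name of Ifi27l2a.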

How the data were processed

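Total cellular RNA was extracted with Trizol and labelled by the Affymetrix one-cycle protocol, per the labels. The deposited values are log2 signals made with GCRMA, per the submitters' processing notes, whose version and number of runs are not given in the sources used here. GCRMA corrects background by probe sequence. Signals below log2 4 were taken as background here, so a fold against them, with these set to log2 4, is a lower bound. No further normalization was applied, and raw intensities were not used here.

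Genes were named through GEO's platform annotation: of 45037 probe sets without 64 controls, 34945 had 1 symbol, 932 several and 9160 none. Probe sets above log2 4 on at least 3 arrays (19305) were fitted in limma 3.58.1 (R 4.3.3, data.table at version 1.17.8) with a mean for each of 7 groups, 17 residual degrees of freedom and no block. Tests were two-sided with Benjamini-Hochberg adjustment over the 19305, and called means an adjusted p under 0.05. Intervals are unadjusted 95% intervals. There were 10 comparisons. The scripts were tested on simulated data. Figures used Python 3.11.15 and matplotlib 3.10.9.

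Replicate numbers come from the labels. Deviations from the group means correlated by 0.465 to 0.914 between same-numbered arrays at 1 h and by 0.128 to 0.646 at 3 h (mock and interferons), every pair above 0.1, so a block by number was also fitted. No 2 arrays were identical. Alternatives were an intensity trend, quantile normalization, a floor at log2 4, no filter, the mean of a gene's probe sets, only the groups compared, no low 5′ actin arrays and each array left out. The members and lists were chosen with earlier results of these data known. Named genes were the members, the 3 genes with the highest Pearson r to each over the arrays and, for each list and comparison whose count is given, up to 3 called genes with the largest difference. Ifi27 was singled out beyond this rule, as were Ifih1, Dhx58, Oas2 and Cish, for their small differences with background set.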

Additional observations from a re-analysis of the deposited data

Results flagged for a closer look

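On Ifi35 probe set 1424617_at, mock replicate 2 at 1 h (3.58) and IFN-gamma replicate 2 at 1 h (4.60) lay further from their group's other arrays than Dixon's test allows. Each probe set was checked in each group of 4 arrays, 24 checks in all, and 2 found such an array. Chance gives about 1 in 20 for a single check. The checks share arrays and both hits are on replicate 2 of the same probe set, so nothing is read from the count. Both arrays also had low 5′ actin signals; their part in the values was not tested.

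The IFN-alpha response differed between 3 h and 1 h by 2.56 for Ifi35 (1445897_s_at), 2.54 for Ifi35 (1459151_x_at), 3.04 for Rtp4 (1449143_at) and 2.48 for Helz2. The IFN-gamma response differed by 4.56 for Rtp4 (1418580_at), 2.42 for Rtp4 (1449143_at) and 1.93 for Ifi35 (1459151_x_at). Each was called by a limma interaction that is made of the differences from mock the members were selected on, so these are descriptions. With arrays below background set to it, the Rtp4 (1449143_at) values were 2.53 and 1.68. Time, 4sU dose and labelling window cannot be told apart in them.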

How the results depend on the processing

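Counts are member genes called, of 5. The share of all probe sets called was counted in the main fits. It was also counted with the replicate block for the direct comparisons and the changes of response. For the other alternatives it was not counted, so nothing is read from their counts. For IFN-alpha against IFN-gamma at 1 h the count of 1 became 2 with the mean of probe sets or without low 5′ actin arrays, 0 with only the groups compared, 3 with the replicate block, and 1 to 2 with 1 array left out. At 3 h the count of 1 became 2 with the mean of probe sets, 5 with only the groups compared, 4 with the replicate block and 3 without low 5′ actin arrays. For the change of the IFN-alpha response the count of 2 became 4 with the replicate block or without low 5′ actin arrays. It became 3 with a floor at log2 4 or the mean of probe sets, and 2 to 3 with 1 array left out. For the change of the IFN-gamma response the count of 1 became 2 with a floor at log2 4 or the mean of probe sets, 0 with only the groups compared, 4 with the replicate block or without low 5′ actin arrays, and 1 to 3 with 1 array left out. For IFN-alpha against mock at 1 h the count of 2 became 1 with only the groups compared and 3 with the replicate block, the mean of probe sets or without low 5′ actin arrays. For IFN-gamma against mock at 3 h the count of 4 became 3 with no filter or with any 1 array of these groups left out. The cause was not tested. No called difference changed sign; 46 of 1274 differences, called in neither fit, did, 42 of them by no more than 1 SE. The mock groups with and without 4sU share numbers whose deviations correlated by 0.081 to 0.802, so these do not pair the arrays, and 0 members were called with or without the replicate block. No block was fitted between the mock times, which are only described. Bst2 and Rtp4 (1449143_at) lay near or below background at 1 h, which limits their 1 h differences. The number of arrays limits the precision.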
